A study of Mus musculus with 2 samples.

Results

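Within the CD31- CD45- cells of gonadal white adipose tissue (gWAT), a set of 400 cells was defined by high RNA of Chchd10, Rab3b, Mmp11 and Sytl2, and is called here the Chchd10-high progenitors or the members. The cells came from male p16-CreERT2/Rosa26-LSL-tdTomato mice aged 18 months, in which tamoxifen activates a Cre recombinase driven by the p16 gene and the recombinase switches on the red reporter tdTomato. Cells were sorted by the reporter, and 1 droplet library was prepared from reporter-positive cells (Tom+) and 1 from reporter-negative cells (Tom-). All mice of both groups carried the transgene and received tamoxifen, the number of mice pooled is not given in the sources used here, and each library is a single sample. Members were chosen from a gate of 7010 progenitor cells, 2819 of the Tom+ library and 4191 of the Tom- library. To pass the gate a cell needed over 1000 genes but not 7000, and less than 8% mitochondrial unique molecular identifiers (UMIs, each counting 1 captured RNA molecule), while cells were left out that were rich in mesothelial, immunoglobulin, Calca and Ncam1, or Pi16 and Dpp4 transcripts. Each gate cell was scored by the mean of ln(1 + UMIs per 10000) of the 4 genes, and the 400 highest cells of both libraries became members, out of 17404 barcodes in all. The remaining 6610 cells are called the rest of the gate.

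Besides the 4 genes of the score, the members had more RNA than the rest of the gate for midkine (Mdk), Sox4, Igfbp5, Ppargc1a, Mitf and Mlana. They had less RNA for Il6 and for the hyaluronan synthases Has1 and Has2. Of 13 chemokines tested 11 were lower in both libraries, beside 28.1% of all genes tested. Nuclear genes of the respiratory chain were higher by a small and common amount, 63 of 73 in both libraries, beside 37.6% of all genes. The members made up 10.6% of Tom+ gate cells and 2.39% of Tom- gate cells, while their tdTomato RNA was lower than that of other Tom+ gate cells. Several genes that lie within 500 kb of Chchd10 and Mmp11 on chromosome 10 were also higher in the members.

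Adipose progenitor cells (APCs) are fibroblast-like stromal cells that renew the tissue and give rise to adipocytes through committed preadipocytes. In the aged depot some of them express p16, an inhibitor of the cell cycle that marks senescent cells. Chchd10 encodes a protein of the mitochondrial intermembrane space that is found at the cristae. Rab3b is a small GTPase of vesicle release, Sytl2 a synaptotagmin-like protein that binds Rab27 on vesicles, and Mmp11, or stromelysin 3, a secreted protease of stromal cells that is known to cut a chain of collagen VI.

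The Tom+ library held 5566 barcodes and 61119807 UMIs, the Tom- library 11838 barcodes and 96872394 UMIs, and 3524 and 6717 cells passed the limits on genes and mitochondrial UMIs. Altogether 2224 barcode sequences occurred in both libraries. They covered 302 gate cells and 16 members, all 16 in the Tom+ library, and 3 of these sequences gave a gate cell in both libraries and 0 a member in both. With such barcodes left out and members chosen anew, 384 of the 400 were the same cells. The members summed to 4365378 UMIs in Tom+ and 1123351 in Tom-, with a median of 13884.5 and 10729 UMIs per cell. The rest of the gate had a median of 13943 and 11038 UMIs. The 10th percentile was 10347.5 and 7920.3 UMIs in members against 7585 and 6559 UMIs in the rest, so that shallow cells were fewer among members. The median mitochondrial share was 4.13% and 3.93% in members, 4.23% and 3.81% in the rest. UMIs were summed over the cells of each pool and divided by the pool total to give counts per 1000000 UMIs (CPM). Brackets hold 95% intervals that cover counting error alone, from the Poisson distribution for a level and by the Clopper-Pearson method for a share or ratio. With 1 library per condition and members chosen by measured RNA, no test was made, and a difference between the sorted groups and a difference between the 2 preparations cannot be told apart.

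The score ran down without a gap. The highest cell scored 2.16, the last member 0.8412 and the first cell outside 0.8406. There were 75 members within 0.05 above the last member and 82 other cells within 0.05 below it, and 2352 gate cells, 33.6%, scored 0. All 4 genes were detected in 99 members, exactly 3 in 165, exactly 2 in 134 and only 1 in 2 members. The most common pair without the other genes was Chchd10 with Mmp11, in 113 members. A Chchd10 UMI was found in 91.0% of Tom+ and 86.0% of Tom- members, so that some members had none. Across the gate cells of the Tom+ library the correlation (Pearson's r over 2819 cells, log values) was 0.359 for Chchd10 with Mmp11, 0.241 for Rab3b with Sytl2 and between 0.082 and 0.18 for the other 4 pairs. In the Tom- library it was 0.286 for Chchd10 with Mmp11 over 4191 cells and 0.119 for Rab3b with Sytl2. The other 4 pairs lay between 0.035 and 0.099 in Tom-. These values are weak, and the cells share library and depth.

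**Figure D1:**
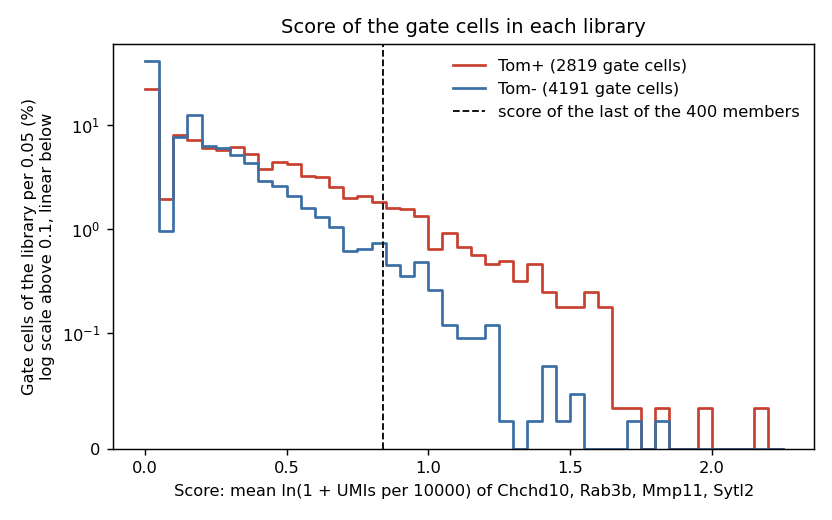
Share of each library's gate cells (y axis, percent per 0.05 of score, log scale above 0.1 and linear below) by their score (x axis). The lines pass the value of the last member, 0.8412 (dashed line), without a gap, and at high scores the line of the Tom+ library lies above that of the Tom- library.

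The 4 genes of the score were high in members by construction, and their values are given as a description. Chchd10 (ENSMUSG00000049422) was at 510 CPM (489 to 532) in Tom+ members against 43.0 CPM in the Tom+ rest, and at 381 CPM (346 to 419) in Tom- members against 17.6 CPM. Mmp11 (ENSMUSG00000000901) was at 656 CPM (633 to 681) against 139 CPM in Tom+ and at 880 CPM (826 to 937) against 95.2 CPM in Tom-. Rab3b (ENSMUSG00000003411) was at 112 CPM (102 to 122) against 16.4 CPM in Tom+ and at 46.3 CPM (34.6 to 60.7) against 6.06 CPM in Tom-. Sytl2 (ENSMUSG00000030616) was at 97.8 CPM (88.8 to 107.5) against 30.5 CPM in Tom+ and at 88.1 CPM (71.6 to 107) against 19.3 CPM in Tom-. In both member pools Chchd10 and Mmp11 had the higher levels, and Rab3b was the gene whose level differed most between the Tom+ and Tom- members. Each gene was then left out in turn and 400 cells were chosen by the other 3. The left-out gene was higher in the chosen cells, with a log2 ratio over the remaining gate of 1.85 in Tom+ and 2.65 in Tom- for Chchd10, 1.73 and 1.41 for Rab3b, 1.31 and 1.98 for Mmp11, and 0.92 and 1.21 for Sytl2. The 4 genes were chosen together with earlier results of these data known, so these ratios, too, are a description. The chosen cells included 239 members without Chchd10 in the score, 265 without Mmp11, 324 without Sytl2 and 336 without Rab3b.

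RNA of the 4 genes was lower than in members in the cells that the gate left out. In 261 Tom+ cells with mesothelial markers Mmp11 was at 7.996 CPM, Rab3b at 1.12 CPM and Sytl2 at 3.90 CPM, while Chchd10 was at 48.7 CPM (43.0 to 55.0), close to its level in the Tom+ rest of the gate. In 1917 Tom- cells with these markers Chchd10 was at 49.5 CPM with a UMI in 47.0% of cells at a median of 14678 UMIs, above the 17.6 CPM and 12% of the Tom- rest. In 145 Tom+ cells rich in immunoglobulin RNA Chchd10 was at 77.7 CPM, above the 43.0 CPM of the Tom+ rest. In 321 Tom+ cells rich in Pi16 and Dpp4, the interstitial progenitors, Chchd10 was at 27.3 CPM and Mmp11 at 38.4 CPM, both below the Tom+ rest, Rab3b at 12.7 CPM, and Sytl2 at 43.8 CPM with a UMI in 49.2% of cells, above the Tom+ rest. A Mmp11 UMI was found in 99.0% of Tom+ members, 57.0% of the Tom+ rest and 13.8% of Tom+ mesothelial-marker cells, the last at a median of 17891 UMIs. Sytl2 was found in 62.0%, 30.0% and 4.60% of the same cells. With each cell thinned to 6959 UMIs, which left out 4 Tom+ and 6 Tom- members and 212 and 479 cells of the rest, the shares for Mmp11 were 91.6% and 44.8% in Tom+ members and rest, and 96.8% and 35.2% in Tom-.

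Chchd10 and Mmp11 are neighbours. On GRCm38 Chchd10 spans chr10:75933130-75937747 on the forward strand and Mmp11 chr10:75923222-75936496 on the reverse strand, so that the annotated genes share 3367 bases, and their 3′ ends, where the reads of this assay fall, are 14.5 kb apart. Rab3b lies at chr4:108879063-108943324 and Sytl2 at chr7:90302252-90410719, both on the forward strand. The RefSeq start sites of Chchd10 and Mmp11 are 628 bases apart and point away from each other. The 250 bases before the start site are shown for the 3 genes of the score with an entry in the RefSeq promoter table (GRCm38.p6), because the first 2 lie within 628 bases and their RNA was high in the same cells. They run 5′ to 3′ on the strand of the gene, and capitals mark matches on either strand to GGGCGG, the core of a GC box, to the letters TATAA of a TATA box and to those of a CCAAT box. They are chr10:75932880-75933129 for Chchd10, chr10:75932503-75932752 for Mmp11 and chr4:108878820-108879069 for Rab3b.
Chchd10: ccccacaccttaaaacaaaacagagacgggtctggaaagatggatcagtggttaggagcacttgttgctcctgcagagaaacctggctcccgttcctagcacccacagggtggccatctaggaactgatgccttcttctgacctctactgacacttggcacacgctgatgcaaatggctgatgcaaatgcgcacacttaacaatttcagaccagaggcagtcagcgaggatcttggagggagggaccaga
Mmp11: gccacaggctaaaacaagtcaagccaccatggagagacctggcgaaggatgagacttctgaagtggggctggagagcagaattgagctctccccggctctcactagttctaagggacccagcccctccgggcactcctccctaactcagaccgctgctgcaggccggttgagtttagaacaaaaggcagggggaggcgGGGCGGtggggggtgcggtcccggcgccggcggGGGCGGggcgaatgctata
Rab3b: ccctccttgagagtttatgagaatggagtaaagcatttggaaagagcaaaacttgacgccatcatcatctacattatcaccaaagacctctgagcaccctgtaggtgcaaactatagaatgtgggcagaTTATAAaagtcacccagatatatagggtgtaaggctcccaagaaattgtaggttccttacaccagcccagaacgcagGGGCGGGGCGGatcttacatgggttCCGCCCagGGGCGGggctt

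The Mmp11 window held GGGCGG at 52 and 19 bases before the start, and the Rab3b window held it at 44, 39 and 11 bases before the start and, on the other strand, at 19 bases, where the first 2 matches overlap by 1 base. Rab3b also held TATAA at 121 and 120 bases before the start, on the 2 strands and overlapping. The Chchd10 window held none of these letters. GGGCGG was present in 32.7% of all 32851 promoter windows of this length, TATAA in 22.8% and CCAAT in 33.8%. The letters CACGTG (6.02% of windows), TCATGTG (3.25%) and TNAAGGTCA (1.14%) were searched on both strands as well and occurred in none of the 3 windows.

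Genes around Chchd10 and Mmp11 were looked at after the value of Gstt2 had been seen. Of 15 tested genes within 500 kb of the Chchd10 gene, 12 were higher in members than in the rest in both libraries and 0 lower in both, with a median log2 ratio of 0.37 in Tom+ and 0.44 in Tom-. Among all 9799 genes tested (a mean of at least 5 CPM over the 4 pools), 37.6% were higher in both, with a median of 0.018 and 0.057. Gstt2, a glutathione transferase 96 kb away, was at 132 CPM against 56.2 CPM in Tom+ and at 106 CPM against 40.0 CPM in Tom-, log2 ratios of 1.23 (1.10 to 1.37) and 1.40 (1.12 to 1.67). Mif, a secreted cytokine gene 73 kb away, was at 336 against 198 CPM and at 288 against 126 CPM. Ggt5, a gamma-glutamyltransferase that cleaves leukotriene C4 and lies 344 kb away, was at 461 against 236 CPM and at 392 against 170 CPM. All 3 had both member pools above both pools of the rest. Gm867, which overlaps the 3′ end of Chchd10 by 25 bases on the other strand, was at 17.4 against 6.36 CPM and 16.02 against 5.49 CPM, and reads of the pair in those bases may be split. Gstt1 (0.52 and 0.64), Ddt (0.46 and 0.49), Cabin1 (0.43 and 0.44) and Smarcb1 (0.20 and 0.44) had smaller positive log2 ratios in Tom+ and Tom-. Beyond 300 kb on the far side, Prmt2 and Dip2a were above 0 in Tom+ and below 0 in Tom-. Around Rab3b, 5 of 12 tested genes within 500 kb were higher in both and 0 lower in both, and around Sytl2 1 of 8 was higher and 3 lower in both.

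**Figure D2:**
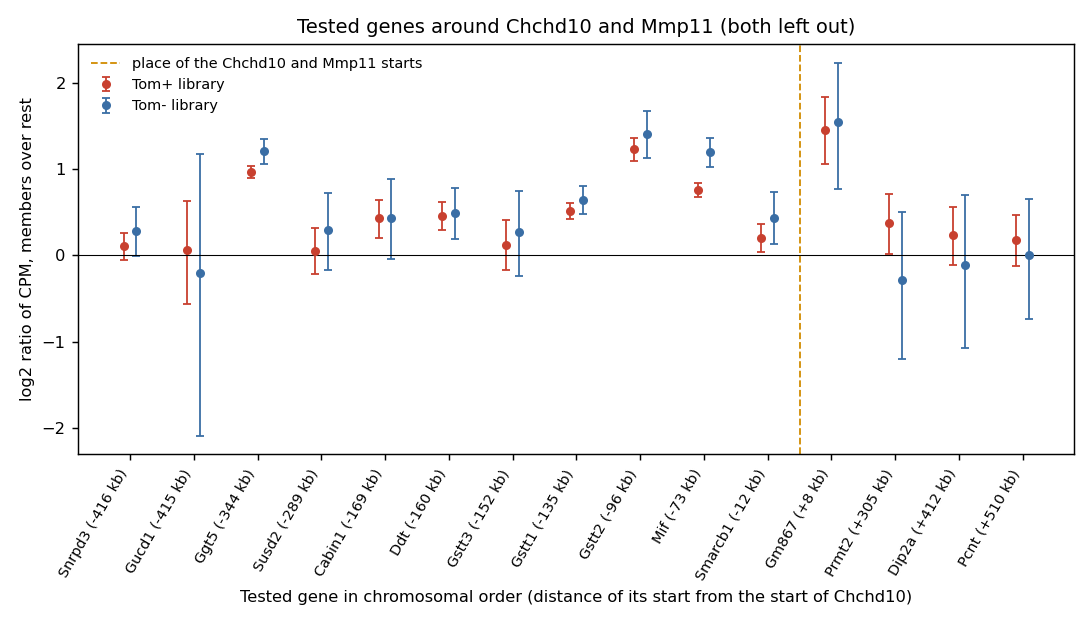
Log2 ratio of CPM, members over the rest of the gate (y axis), for the 15 tested genes within 500 kb of the Chchd10 gene, in chromosomal order (x axis, distance in kb), with 95% counting intervals for each library. Gstt2, Mif, Ggt5 and Gm867 stand highest in both libraries, and Prmt2 and Dip2a, to the right, lie above 0 in Tom+ and below 0 in Tom-.

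Which share of Tom+ and Tom- progenitors were members was asked next. Members were 300 of 2819 Tom+ gate cells, 10.6% (9.53 to 11.8), and 100 of 4191 Tom- gate cells, 2.39% (1.95 to 2.90). Of all members, 75.0% (70.5 to 79.2) came from the Tom+ library, which supplied 40.2% of the gate. The share was higher in Tom+ for each score with 1 gene left out and with 200 or 800 members. Without barcodes found in both libraries it was 11.5% and 2.54%. The levels of the 4 genes in the rest of the gate were also higher in Tom+ than in Tom-, and how far this bears on the shares was not tested.

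The reporter itself went the other way. In Tom+ members tdTomato RNA was at 48.3 CPM (42.0 to 55.3) from 211 UMIs, of which 59 were in 1 cell, against 165 CPM (161 to 170) in the Tom+ rest, a log2 ratio of -1.77 (-1.98 to -1.58). In Tom- cells it was at 12.5 CPM (6.81 to 20.9) in members and 13.4 CPM (12.4 to 14.5) in the rest. Tom+ members were thus above both Tom- pools and below the Tom+ rest. A tdTomato UMI was found in 21.3% of Tom+ members (16.8 to 26.4) and 25.8% of the Tom+ rest (24.1 to 27.6), and in 13.0% and 12.8% of the Tom- pools, the library sorted as negative. With cells thinned to 6959 UMIs the shares were 11.1% and 16.4% in Tom+ and 6.38% and 8.42% in Tom-. Cdkn2a, the gene that encodes p16, had 22 UMIs in Tom+ members (5.04 CPM, 3.16 to 7.63) and 1 UMI in Tom- members, against 4.68 CPM and 4.22 CPM in the rest. Of 19 cell cycle inhibitor and p53 genes tested, 6 were higher in both libraries and 4 lower, beside 37.6% and 28.1% of all genes. The median log2 ratios of these 19 genes were 0.075 in Tom+ and 0.015 in Tom-. Trp53inp1, a p53 target, had the highest ratios of these (0.67 and 1.07), and Cdkn1a, the p21 gene, was at 325 against 272 CPM in Tom+ and 229 against 286 CPM in Tom-. Of 6 proliferation genes tested 1 was higher in both libraries and 4 lower, with medians of -0.012 and -0.12. Ccnd2, the most abundant, was at 103 against 161 CPM in Tom+ and 82.8 against 105 CPM in Tom-.

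The members carried the markers of APCs. Dcn, the proteoglycan decorin, had 23634 CPM in the Tom+ members and 27238 CPM in the Tom- members, and Col3a1 5452 and 4155 CPM. Pdgfra, a receptor that marks APCs, was at 454 CPM against 372 CPM in Tom+ and 319 against 297 CPM in Tom-, and Ly6a, the Sca-1 gene, at 1084 against 1279 CPM and 1140 against 1312 CPM. Markers of other cell types were near 0 for some types and present for others. The 6 endothelial markers summed to 1.37 CPM in Tom+ and 5.34 CPM in Tom- members, with Pecam1 the most abundant, and the 5 epididymal epithelium markers to 2.52 and 0.890 CPM (Krt7). The 7 immune markers summed to 18.3 and 12.5 CPM in members and to 270 and 109 CPM in the rest, with Lyz2 the most abundant. The 7 mature adipocyte markers summed to 68.3 and 61.4 CPM in members against 59.2 and 44.8 CPM in the rest (Pnpla2), and the 8 mesothelial markers to 148 and 209 CPM against 194 and 302 CPM (Wt1, which progenitors of this depot also express). The 8 pericyte and smooth muscle markers summed to 92.1 and 65.0 CPM against 102 and 76.0 CPM (Myh11). At least 3 mesothelial UMIs were found in 29.3% of Tom+ and 31.0% of Tom- members (37.6% and 47.9% of the rest), and at least 3 pericyte and smooth muscle UMIs in 19.0% of Tom+ members and 8 of 100 Tom- members (17.7% and 8.36% of the rest). The part of these cells in the results was not tested. None of these lists had a marker at 0 in all 4 pools. The cells are named here by the genes that chose them and not as a cell type of their own.

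At a log2 ratio of at least 1 in both libraries, 37 of 9799 genes were higher in members, 0.378% of genes tested, and 4 of these are the genes of the score. Without Chchd10 in the score 22 genes were higher, 18 of them among the 37, and without Mmp11 32 were, 20 of them among the 37. At a ratio of at most -1 in both, 114 genes were lower, 1.16%. Signs were opposite in the 2 libraries for 34.3% of genes. These figures come from the contrast that chose the members and are descriptive.

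The most abundant genes among the other 33 were Mdk, Sox4 and Igfbp5. Mdk (ENSMUSG00000027239) encodes midkine, a secreted heparin-binding growth factor, and was at 730 CPM (704 to 755) in Tom+ members against 289 CPM (283 to 294) in the Tom+ rest. In Tom- it was at 606 CPM (562 to 654) against 146 CPM (142 to 149). The log2 ratios were 1.34 (1.28 to 1.40) and 2.06 (1.94 to 2.17), and both member pools lay above both pools of the rest. Sox4 (ENSMUSG00000076431), a transcription factor of progenitor cells, was at 547 CPM (525 to 569) against 229 CPM in Tom+ and at 645 CPM (599 to 694) against 104 CPM in Tom-. Its log2 ratio was 1.26 (1.19 to 1.32) in Tom+ and 2.63 (2.52 to 2.74) in Tom-. The Tom- rest had less Sox4 RNA than the Tom+ rest, and the Tom- members had more than the Tom+ members. Igfbp5 (ENSMUSG00000026185), an IGF binding protein known among the secreted factors of senescent cells, was at 232 CPM (218 to 247) against 97.3 CPM in Tom+ and 101 CPM (82.9 to 121) against 31.9 CPM in Tom-. In the Tom- members 42 of its 113 UMIs were in a single cell, without which the level was 64.0 CPM and the log2 ratio 1.006. Marcksl1, an actin-binding protein gene, was at 162 against 78.1 CPM and 173 against 45.0 CPM, and Stmn1, which destabilises microtubules, at 44.9 against 17.6 CPM and 40.1 against 11.4 CPM. For both genes, too, the member pools lay above the pools of the rest.

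A pair of genes known from pigment cells was also higher. The pair was set apart for this role after the values were seen, and no list of pigment cell genes was tested. Mlana, which encodes melan-A, a protein of melanosomes, was at 45.6 CPM (39.5 to 52.4) against 17.8 CPM in Tom+ and at 24.04 CPM (15.8 to 35.0) against 6.44 CPM in Tom-, log2 ratios of 1.36 and 1.90. Most members had no Mlana UMI. It was found in 27% of Tom+ members and 13.14% of the Tom+ rest, and in 16% of Tom- members and 4.155% of the Tom- rest. Mitf, the factor that directs melanocyte genes and lysosome biogenesis, was at 155 against 87.5 CPM and 118 against 62.2 CPM, ratios of 0.82 and 0.93. Ppargc1a, the coactivator PGC-1 alpha of mitochondrial biogenesis, was at 121 CPM (111 to 132) against 66.5 CPM in Tom+ and 86.3 CPM (70.0 to 105) against 28.4 CPM in Tom-. Further genes among the 20 with the highest smaller ratio at 20 CPM or more were Fst, the activin-binding follistatin (739 against 371 CPM and 588 against 306 CPM), Anpep, the surface peptidase CD13 (0.80 and 1.13), Slc7a8, an amino acid transporter (0.89 and 1.07), Hbegf, an EGF receptor ligand (1.31 and 1.42), Me3, the mitochondrial malic enzyme (1.11 and 1.41), Cd1d1 (1.02 and 1.38), Plekho1 (0.91 and 1.49), Mex3b (0.89 and 1.58), Podxl2 (0.87 and 1.36) and Inmt, a methyltransferase (0.78 and 0.83). In all of these the Tom+ and Tom- ratios had lower bounds above 0, for counting error alone. For Hbegf 1 cell held 35 of the 133 UMIs in Tom+ members, and 1 cell held 10 of the 31 in Tom- members. Its ratios without these cells were not tested.

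Among the called genes of lower abundance, some are known from neurons and secretory cells. Slc17a8, a vesicular glutamate transporter, was at 14.4 against 3.15 CPM in Tom+ and 7.12 against 0.466 CPM in Tom-, where 8 UMIs were counted in members. Kif1a, a motor of synaptic vesicle precursors, was at 31.6 against 15.7 CPM and 17.8 against 6.19 CPM. Nrcam, a cell adhesion gene, was at 20.4 against 9.48 CPM and 19.6 against 7.76 CPM. Syn3, a synapsin, was at 9.85 against 4.90 CPM and 12.5 against 3.98 CPM. These were chosen after their values were seen, and the list of ion channel and neuronal signalling genes did not share the direction. Of its 16 tested genes 5 were higher in both libraries and 8 lower, beside 37.6% and 28.1% of all genes. The medians of this list were -0.19 and -0.24. Slc40a1, the iron exporter ferroportin, was at 37.8 against 14.8 CPM and 16.02 against 6.21 CPM. Cemip, which degrades hyaluronan, was at 12.6 against 2.63 CPM in Tom+, and all 10 of its UMIs in Tom- members came from 1 cell.

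**Figure D3:**
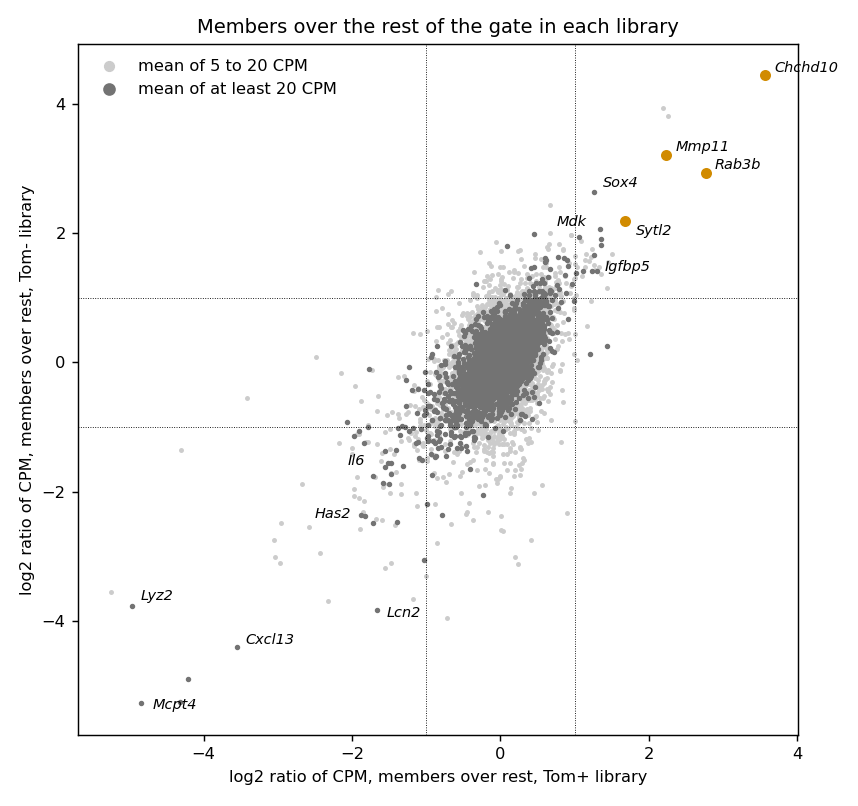
Log2 ratio of CPM, members over the rest of the gate, in the Tom+ library (x axis) and the Tom- library (y axis), each point a gene with UMIs in all 4 pools. The 4 genes of the score (orange) stand at the upper right, where Sox4 lies above Sytl2 on the y axis and the unlabelled pair beside Mmp11 is Slc17a8 and Cemip, immune genes such as Lyz2 and Mcpt4 at the lower left, and dotted lines mark ratios of 1 and -1.

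Levels were also followed along the rank of the score, with 400 as the last rank of the members. In Tom+ cells Mdk was at 932 CPM in the 84 cells ranked 1 to 100, 664 CPM in ranks 101 to 200, 509 CPM in ranks 401 to 800, 297 CPM in ranks 1601 to 3200 and 160 CPM in cells with a score of 0. In Tom- cells it was at 834, 544 and 566 CPM in ranks 1 to 100, 101 to 200 and 201 to 400. Further down in Tom-, Mdk was at 357 CPM in ranks 401 to 800 and 110 CPM at score 0. Sox4 in Tom+ was at 814 CPM in the first 100 ranks, 435 CPM in ranks 101 to 200, 448 CPM in ranks 201 to 400, 433 CPM in ranks 401 to 800 and 110 CPM at score 0. In Tom- it was at 798, 617, 612, 311 and 66.9 CPM in the same groups, so that the step past the last member was larger there than in Tom+. Ppargc1a was not ordered by rank among the members, at 123, 148 and 104 CPM in the 3 rank groups of Tom+ members and 104, 55.8 and 94.8 CPM in those of Tom-, and was at 47.0 and 19.1 CPM at score 0. Igfbp5 was highest in the first 100 ranks, with 427 CPM in the Tom+ and 378 CPM in the Tom- cells, against 130 and 31.4 CPM in ranks 101 to 200 and 172.5 and 48.2 CPM in ranks 201 to 400. In the Tom- library those 100 ranks hold 16 cells with 73 Igfbp5 UMIs, and without the cell that has 42 of them the level was 173 CPM. Il6 was lowest in the first 100 ranks without a steady order after them. In Tom+ it was at 17.2 CPM there, 101 CPM in ranks 101 to 200, 64.5 CPM in ranks 201 to 400, 126.5 CPM in ranks 401 to 800 and 337 CPM at score 0. In Tom- it was at 67.4 CPM in the first 100 ranks, 167 CPM in ranks 101 to 200, 110 CPM in ranks 201 to 400, 311 CPM in ranks 401 to 800 and 444 CPM at score 0. tdTomato in Tom+ cells was at 68.0, 14.0 and 56.0 CPM in the 3 rank groups of the members, at 105 CPM in ranks 401 to 800 and at 290 CPM at score 0. Without the cell that holds 59 tdTomato UMIs the first of these was 19.9 CPM.

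**Figure D4:**
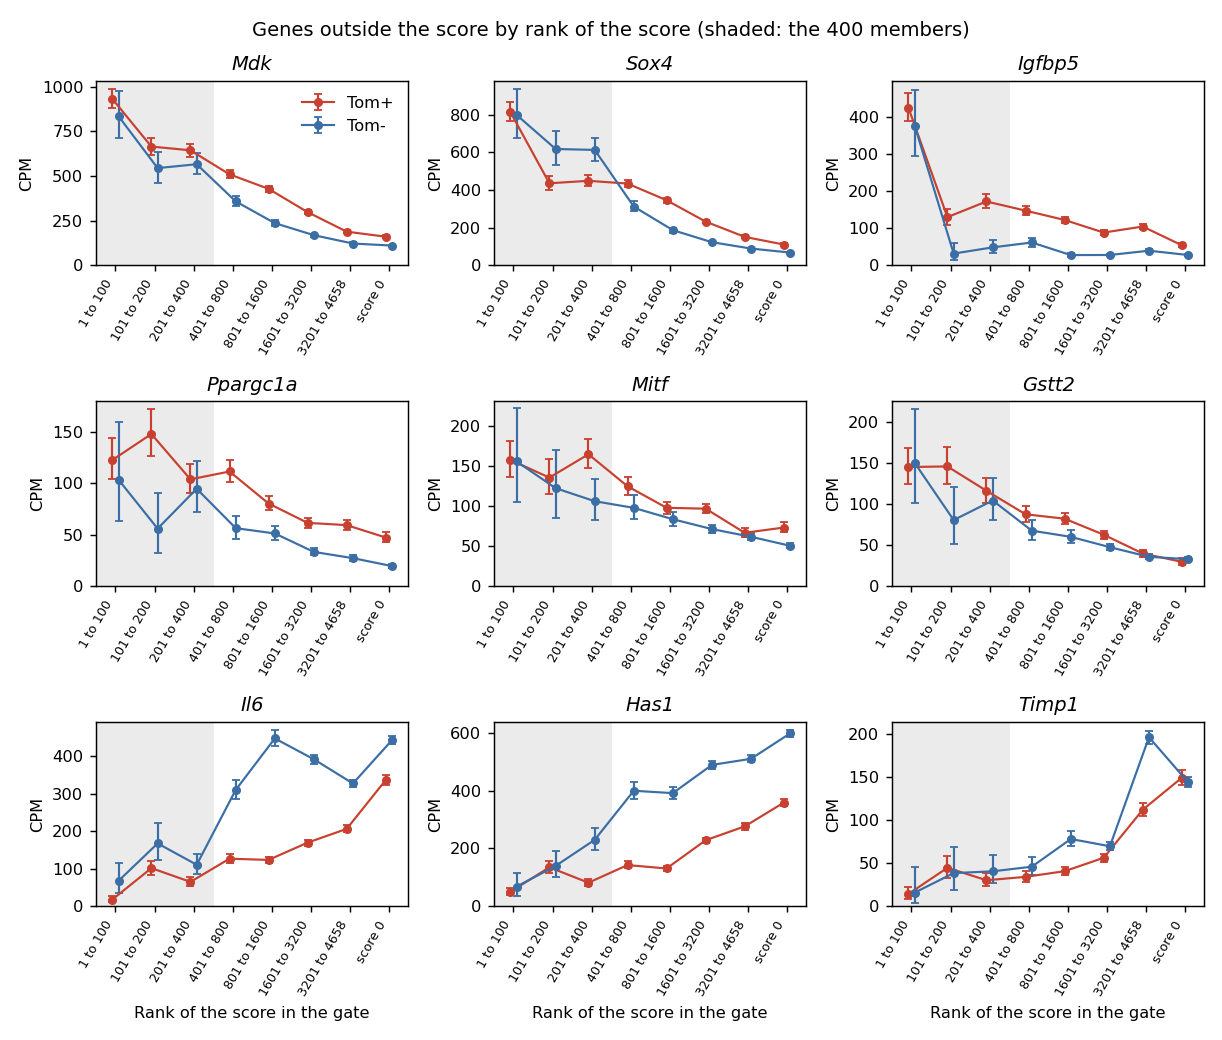
CPM (y axes) of 9 genes outside the score in gate cells grouped by the rank of their score (x axes), with 95% counting intervals for each library. Mdk, Sox4, Ppargc1a, Mitf and Gstt2 are higher in the first 100 ranks than at score 0 in both libraries, Igfbp5 is high in the first 100 ranks, and Il6, Has1 and Timp1 are lowest there.

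Chchd10 belongs to a family of mitochondrial proteins, and mitochondrial genes were compared by list. Of 73 nuclear genes of the respiratory chain, 63 were higher in members in both libraries and 1 lower, with median log2 ratios of 0.18 in Tom+ and 0.23 in Tom-, beside 37.6% of all genes higher in both and medians of 0.018 and 0.057. The difference was small for each gene. Cox4i1, a subunit of complex IV and the most abundant, was at 709 CPM (684 to 734) against 571 CPM in Tom+ and 562 CPM (519 to 607) against 472 CPM in Tom-. Cox5a was at 184 against 137 CPM and 153 against 110 CPM, and Sdhb, of complex II, at 124 against 91.9 CPM and 127 against 91.7 CPM. Ndufa7 of complex I was the gene that was lower in both, at 199 against 200 CPM and 202 against 210 CPM. The 13 genes encoded in the mitochondrial genome did not share this, with 3 higher in both, 3 lower and medians of -0.027 and 0.037. Under the alternatives tried, the median of the nuclear genes stayed between 0.085 and 0.21 in Tom+ and between 0.13 and 0.33 in Tom-.

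Of 11 regulators of mitochondrial biogenesis, 6 were higher in both libraries and 1 lower, beside 37.6% and 28.1% of all genes. Beside Ppargc1a, Esrra, the nuclear receptor that works with it, was at 24.3 against 18.0 CPM and 17.8 against 13.1 CPM, and Polrmt, the mitochondrial RNA polymerase, at 6.64 against 3.70 CPM and 8.01 against 4.15 CPM. Pprc1 was lower (-0.52 and -0.47). Other Chchd and cristae genes stayed close to the rest: 11 of 20 were higher in both and 5 lower, with medians of 0.033 and 0.17. Chchd2, the closest relative of Chchd10, was at 648 against 633 CPM and 706 against 658 CPM, and Chchd3, Chchd4, Chchd5, Chchd6 and Chchd7 had ratios between -0.59 and 0.49. Apoo, a cristae protein gene, had the highest ratios of the list, 0.53 and 0.81.

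The relatives of Rab3b were compared next. Rab3a was at 19.0 against 19.8 CPM in Tom+ and 24.04 against 27.1 CPM in Tom-, and Rab3d at 28.9 against 33.5 CPM and 34.7 against 37.3 CPM. Rab3c had 1 UMI and 0 UMIs in the member pools, and Rab27a and Rab27b had 6 and 1 UMIs in Tom+ members and 0 in Tom- members. The 6 UMIs of Rab27a are 1.37 CPM, against 0.164 CPM in the Tom+ rest, a log2 ratio of 3.06 (1.16 to 4.97) at very low counts. Of 17 tested genes of Rab3 and Rab27 exocytosis, 5 were higher in both and 5 lower, beside 37.6% and 28.1% of all genes. The medians were -0.017 and 0.010. Stx3, a syntaxin of vesicle fusion, had the highest ratios (0.41 and 0.54) and Cadps, a priming factor, the lowest (-0.77 and -1.78). Among the synaptotagmin-like genes, Sytl3 was at 5.04 against 3.12 CPM and 7.12 against 1.93 CPM, while Sytl1 and Sytl4 stayed under 3 CPM in every pool.

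Matrix proteases and their inhibitors were mixed. Mmp2 and Mmp14, a secreted gelatinase and its membrane-bound activator, were at 1236 against 916 CPM and 666 against 449 CPM in Tom+, and at 1059 against 593 CPM and 501 against 265 CPM in Tom-. Mmp23 was lower in both (-0.35 and -0.54), and Mmp3 and Mmp19 were higher in Tom+ and lower in Tom-. In Tom+ members 1 cell held 125 of the 610 Mmp3 UMIs. Timp3 was at 720 against 557 CPM and 720 against 419 CPM, Timp2 close to the rest at 2308 against 2416 CPM and 1954 against 2012 CPM, and Timp1 lower at 29.3 against 83.3 CPM and 35.6 against 132 CPM. Of the 5 collagen VI genes, whose product includes the chain that Mmp11 cuts, 4 were lower in both libraries, beside 28.1% of all genes. Col6a1 was at 820 against 1103 CPM and 754 against 959 CPM, Col6a2 at 531 against 794 CPM and 469 against 648 CPM, and Col6a6 was the exception at 185 against 153 CPM and 150 against 110 CPM. Of 18 fibrillar collagen and processing genes 4 were higher in both and 8 lower, and the median was -0.15 in Tom+ and 0.063 in Tom-. Of 15 basement membrane genes 4 were higher and 8 lower, and of 33 proteoglycan and matricellular genes 8 were higher and 16 lower. These counts stand beside 37.6% of all genes higher in both libraries and 28.1% lower in both.

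Adipogenic factors showed no common shift. Pparg, the master factor of adipocytes, was at 24.1 CPM (19.7 to 29.1) against 22.1 CPM in Tom+ and 24.04 CPM (15.8 to 35.0) against 25.6 CPM in Tom-, and Cebpa at 47.0 against 42.4 CPM and 55.2 against 48.4 CPM. The interval of both ratios of both genes included 0. Of 26 adipogenic factors 12 were higher in both and 6 lower, beside 37.6% and 28.1% of all genes. Klf4, the most abundant, was at 2120 against 2380 CPM and 2545 against 2885 CPM. Of 21 lipid uptake and droplet genes 15 were higher in both and 6 lower, beside the same shares of all genes. Their medians were 0.12 and 0.26. Plin2, a lipid droplet coat protein, was at 338 against 216 CPM and 394 against 214 CPM, Plin4 at 28.6 against 18.9 CPM and 11.6 against 4.96 CPM, and Fabp4 at 1363 against 1326 CPM and 1658 against 1110 CPM. Cd36, a fatty acid receptor, was at 19.7 against 46.2 CPM in Tom+ and 11.6 against 12.1 CPM in Tom-. The list of committed preadipocyte markers divided, with Ggt5 and Plin2 higher and Col15a1 (-1.36 and -1.13) and Cxcl14 (-1.55 and -1.61) lower.

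Most markers of other progenitor states were lower. Of 13 interstitial progenitor markers 10 were lower in both libraries, beside 28.1% of all genes, among them Cd55 (76.3 against 134 CPM and 64.1 against 117 CPM) and the matrix glycoprotein Fn1 (1391 against 1777 CPM and 815 against 1113 CPM). The gate had removed the cells richest in Pi16 and Dpp4 from members and rest alike. Dpp4 itself was at 47.6 against 40.9 CPM and 34.7 against 24.2 CPM, and Creb5 was higher at 338 against 285 CPM and 283 against 192 CPM. Of 11 markers of adipogenesis regulatory cells 9 were lower, among them Meox2 (9.39 against 18.9 CPM and 1.78 against 17.7 CPM), and Mgp, the most abundant (1493 against 1285 CPM and 2097 against 1804 CPM), and Igfbp3 (log2 ratios of 0.91 and 0.67) were higher. F3, the CD142 gene, was at 232 against 255 CPM and 264 against 338 CPM. Of 13 surface antigens of progenitors 10 were lower in both, with Thy1 lowest at 3.44 against 22.0 CPM and 6.23 against 23.1 CPM. Ly6c1 was at 454 against 524 CPM and 357 against 436 CPM, and Lgals3, a galectin, at 40.1 against 74.6 CPM and 41.8 against 58.7 CPM.

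Inflammatory genes were lower in the members. All 15 tested genes of the cytokine and NF-kappaB list were lower in both libraries, beside 28.1% of all genes, with medians of -0.41 and -0.69. Il6, a cytokine of the senescence secretome, was at 60.9 CPM (53.8 to 68.7) against 200 CPM in Tom+ and 118 CPM (98.3 to 139) against 396 CPM in Tom-, log2 ratios of -1.71 (-1.90 to -1.54) and -1.75 (-2.01 to -1.51). In Tom+ members 80 of its 266 UMIs were in 1 cell. Il33, an alarmin, was at 2.29 against 18.8 CPM and 6.23 against 50.2 CPM, and Nfkb1 at 226 against 344 CPM and 386 against 621 CPM. Of 13 chemokines 11 were lower in both and 7 were called lower, beside 28.1% and 1.16% of all genes, with medians of -1.24 and -1.06, and the second median is the same with Cxcl5 and Cxcl9, which had 0 UMIs in Tom- members, set to 3 counts. Cxcl1, a chemokine for neutrophils, was at 911 against 2147 CPM and 2452 against 5114 CPM, Ccl7 at 344 against 756 CPM and 582 against 1378 CPM, and Cxcl13, a chemokine for B cells, at 3.44 against 40.3 CPM and 5.34 against 113 CPM. Cxcl12, which retains stem cells in bone marrow stroma, was higher at 829 against 660 CPM and 936 against 876 CPM. Both Tom- pools lay above the Tom+ pool of the same kind for Il6 and Cxcl1.

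Further genes called lower have several known roles. Has1 and Has2, which make hyaluronan, were at 86.1 against 240 CPM and 11.4 against 42.0 CPM in Tom+, and at 179 against 526 CPM and 7.12 against 36.6 CPM in Tom-. Ptgs2, the inducible prostaglandin synthase, was at 65.1 against 254 CPM and 214 against 471 CPM, and the orphan receptor Nr4a2 at 89.6 against 250 CPM and 120 against 398 CPM. Lcn2 and Serpina3n, both acute phase genes, had ratios of -1.66 and -3.83 and of -1.57 and -1.87. Of 10 complement genes 8 were lower in both and 0 higher, C3 being at 4379 against 4943 CPM and 3926 against 5275 CPM. Of 13 contractile genes 11 were lower and 5 called, beside 28.1% and 1.16% of all genes, with Tagln at 5.27 against 14.7 CPM and 4.45 against 38.1 CPM and Acta2, smooth muscle actin, at 3.44 against 13.5 CPM and 6.23 against 26.02 CPM. With 800 members the Tom+ ratio of Acta2 was 0.12.

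The very lowest ratios belonged to genes of mast cells and macrophages. Lyz2 was at 5.73 against 179 CPM in Tom+ and 1.78 against 24.2 CPM in Tom-, Cd74 at 2.75 against 55.0 CPM and 1.78 against 67.6 CPM, and Mcpt4 at 2.75 against 78.5 CPM in Tom+. Tom- members had 1 UMI each of Mcpt4 and Cma1 and 0 of Tpsb2. The Tom- ratios of Mcpt4 and Cma1 were 5.95 and 6.41 after thinning, and 0.17 and 1.25 without Chchd10 in the score. In summed pools, fewer cells of a type and less of its RNA per cell cannot be told apart. Cells with at least 3 UMIs of 10 immune genes numbered 222 in the gate and 6 among members. With those cells left out and members chosen anew, 91 genes in place of 114 were called lower and 33 in place of 37 higher, the Mcpt4 ratio in Tom- was 0.29 and the Cma1 ratios 0.33 and 0.085, and Il6 had ratios of -1.78 and -1.62.

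**Figure D5:**
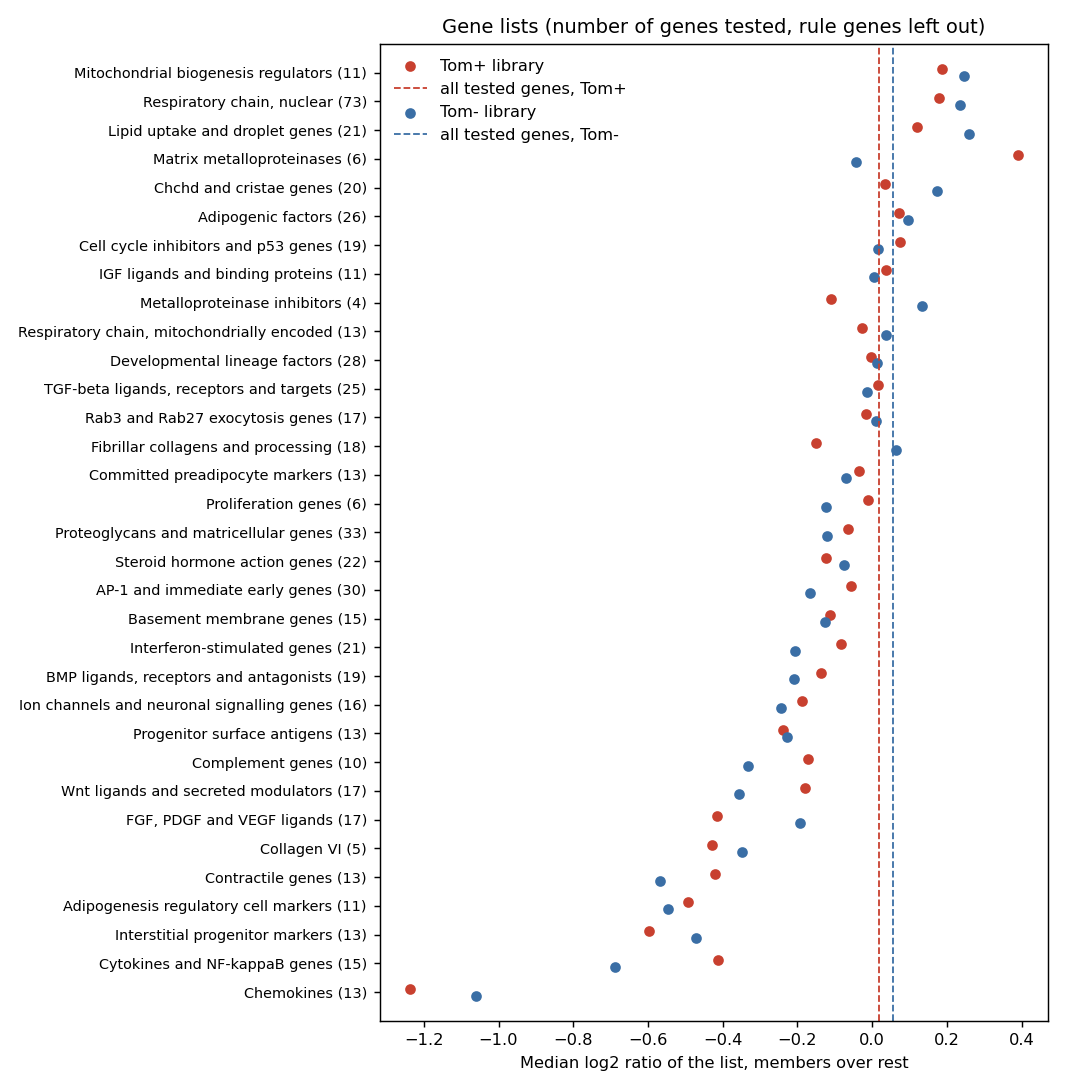
Median log2 ratio, members over the rest of the gate (x axis), for the gene lists with at least 4 genes tested (y axis, number tested in brackets), 1 point for each library, with the median over all 9799 genes as dashed lines. Chemokines stand farthest to the left in both libraries, and the mitochondrial biogenesis regulators and the nuclear respiratory chain genes lie to the right of the dashed lines in both libraries.

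Signalling lists held genes of both directions, and their counts stand beside 37.6% of all genes higher in both libraries and 28.1% lower in both. Of 11 IGF ligand and binding protein genes 6 were higher in both and 5 lower. Igfbp5, Igfbp3 (100 against 53.4 CPM and 45.4 against 28.6 CPM) and Stc2 were on the higher side, and Igf1 (334 against 543 CPM and 400 against 740 CPM), Igfbp4 and Igfbp6 on the lower. Of 25 TGF-beta ligands, receptors and targets 7 were higher in both and 8 lower, and Tgfbr2, the type II receptor, was at 131 against 152 CPM and 117 against 129 CPM. Of 19 BMP pathway genes 5 were higher and 10 lower, with Fst highest. Chrdl1, a BMP antagonist, was lowest at 2.29 against 7.32 CPM and 1.78 against 9.56 CPM. Its level in Tom- members rests on 2 UMIs, and its Tom- ratio was 0.22 without Mmp11 in the score. Of 17 Wnt ligands and modulators 4 were higher and 10 lower. The secreted modulators Sfrp1 (154 against 303 CPM and 189 against 433 CPM) and Sfrp4 (2.52 against 19.6 CPM and 2.67 against 23.0 CPM) were lower, and Axin2, a target of Wnt signalling, was at 19.2 against 11.2 CPM and 12.5 against 5.21 CPM. Of 17 FGF, PDGF and VEGF ligands 3 were higher in both and 11 lower, and Vegfd, a lymphatic growth factor and the most abundant, was among the higher at 739 against 474 CPM and 697 against 456 CPM. Of 21 interferon-stimulated genes 4 were higher and 13 lower, of 22 steroid hormone action genes 4 and 13, and of 30 AP-1 and immediate early genes 10 and 15, with Fos at 7022 against 6058 CPM and 8660 against 6976 CPM.

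Within the members, Tom+ and Tom- cells were then set side by side. At a log2 ratio of at least 1, 378 of 9799 genes were higher in Tom+ members (3.86%) and 144 were lower at -1 or below (1.47%). At a mean of 20 CPM or more, 60 and 32 genes were past these limits. The median ratio was 0.077 in members and 0.14 in the rest. Among genes of at least 50 CPM in members, Ighm and Igkc had the highest ratios (1.79 and 1.77), at nearly the same ratio in the rest (1.63 and 1.54), where immunoglobulin RNA was as abundant. Gdf15, a stress-induced cytokine, was at 90.9 CPM in Tom+ members from 49 cells and at 27.6 CPM in Tom- members, and at 33.7 and 23.1 CPM in the rest. Without the cell that held 82 of its 397 UMIs the Tom+ level was 72.3 CPM. Mmp3 was at 140 and 48.1 CPM with 125 of 610 Tom+ UMIs in 1 cell. Saa3 was at 72.9 and 28.5 CPM with 112 of 318 Tom+ UMIs in 1 cell. Slco2a1, a prostaglandin transporter, was at 77.9 and 23.2 CPM. On the lower side of Tom+ stood Cxcl2 (14.2 and 89.0 CPM, or 45.0 CPM in Tom- without the cell that held 50 of its 100 UMIs), Ptgs2 (65.1 and 215 CPM), the noncoding Meg3 (105 and 283 CPM), Cxcl1, Ahcyl2 and Txndc16. Of the 83 Ahcyl2 UMIs in Tom- members 30 came from 1 cell. Of the 87 Txndc16 UMIs in Tom- members 59 came from 1 cell, without which the Tom- level was 25.2 CPM, below the 31.2 CPM of Tom+ members. For Cxcl2, Cxcl1, Meg3 and Ptgs2 the rest of the gate had ratios in the same direction (-1.50, -1.25, -0.83 and -0.89).

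How far members lay together by other genes was measured with the 20 nearest neighbours of each cell in 30 principal components from 2000 variable genes, the 4 genes of the score left out. Of the neighbours of members 25.7% were members, who are 5.71% of the gate. The value was 28.1% for Tom+ members against 8.62% for the Tom+ rest, and 18.5% for Tom- members against 2.37% for the Tom- rest. Neighbours from the same library made up 83.3% of those of Tom+ members and 59.25% of those of Tom- members. Among these same-library neighbours 29.4% and 16.6% were members, who are 10.6% and 2.39% of the gate cells of each library. Most neighbours of a member were thus not members. Compared with the 400 highest cells of 3 other scores, the members shared 4 cells (1%) with a Smpd3, Chst1 and Pcsk6 score, 16 (4%) with a Vtn, Cxcl14 and G0s2 score and 14 (3.5%) with a Cfd, Car3 and Itm2a score. Igfbp5 was higher in the Tom- cells of the Smpd3 score than in Tom- members. It was at 101, 62.7 and 190 CPM in the Tom+ cells of the Smpd3, Vtn and Cfd scores and at 151, 20.2 and 35.0 CPM in their Tom- cells, beside 232 and 101 CPM in Tom+ and Tom- members. In the Tom+ cells of the Vtn score Mdk was at 454 CPM and Sox4 at 246 CPM, and in those of the Smpd3 score at 101 and 187 CPM, below the 730 and 547 CPM of Tom+ members. In the Tom+ cells of the Cfd score they were at 239 and 173 CPM. In Tom- cells of the Smpd3, Vtn and Cfd scores Mdk was at 24.2, 159 and 116 CPM and Sox4 at 120, 119 and 67.6 CPM, beside 606 and 645 CPM in Tom- members. Il6 was below the rest of the gate of the same library in all of these cells too, and Has1 in some of them. In Tom+ cells of the Smpd3, Vtn and Cfd scores Il6 was at 110, 192 and 146 CPM (200 CPM in the Tom+ rest) and Has1 at 305, 153 and 244 CPM (240 CPM). In Tom- cells of the Smpd3 score they were at 242 and 829.5 CPM, beside 396 and 526 CPM in the Tom- rest. They were at 180 and 241 CPM in the Tom- cells of the Vtn score and 209 and 323 CPM in those of the Cfd score, beside 118 and 179 CPM in Tom- members.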

How the data were processed

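The 2 libraries (1 Tom+, 1 Tom-) were made by a droplet 3′ assay, and the authors aligned reads to mm10 and counted UMIs with Cell Ranger 3.0.2, per the labels. The deposited matrices hold whole UMI counts that were not normalized. Cells needed over 1000 genes but not 7000, and less than 8% mitochondrial UMIs. The progenitor gate further required under 5 mesothelial UMIs, under 1% immunoglobulin UMIs, under 3 Calca and Ncam1 UMIs and under 10 Pi16 and Dpp4 UMIs. No doublet caller was run, and cells over the 90th percentile of UMIs were left out as an alternative. Counts were summed over cells of 4 pools (members and rest of each library) and scaled to CPM with Python 3.11.15, numpy 2.4.6, pandas 2.3.3 and scipy 1.17.1, and neighbours were found with scanpy 1.11.5 and scikit-learn 1.9.0. Ratios are log2 of CPM without a pseudocount, where a count of 0 was set to 0.5 for calls and medians only. The 9799 genes whose mean over the pools reached 5 CPM were compared, and 35 symbols listed more than once were left out. A gene was called at a log2 ratio of at least 1, or at most -1, in both libraries. The ratios and their intervals were tested on Poisson counts simulated for the 4 pools. The gate, the choice of members, thinning and neighbours were not part of that test, and no spread between cells was simulated.

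The members, the 40 gene lists and the rules were chosen with earlier results of these data known. Named genes were the score genes, tdTomato, Cdkn2a, and, at a mean of at least 20 CPM, the 20 with the highest smaller ratio and the 12 with the lowest larger ratio. To these were added, at 50 CPM or more in members, the 6 highest and 6 lowest Tom+ over Tom- ratios, and set members of each list. Other genes, those near Chchd10 among them, were chosen after their values were seen. Positions are from GENCODE vM21 on GRCm38, the assembly of mm10, where 9789 of 9799 genes had one. Where strand use in counting is not given in the sources used here, reads of overlapping genes may be split. Alternatives changed the number of members, the score genes, depth, filters on cells and genes, and scaling. The markers of 1 other cell type are not reported here.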

Additional observations from a re-analysis of the deposited data

Results flagged for a closer look

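In 5 named genes the members differed from the rest of the gate in opposite directions in the 2 libraries, with counting intervals that exclude 0. These intervals do not cover the spread between cells. The difference between the libraries was not tested. Col3a1, a fibrillar collagen, had a log2 ratio of -0.2285 in Tom+ (5452 against 6388 CPM) and 0.093 in Tom- (4155 against 3896 CPM). Sparc, a matricellular protein gene, had -0.1239 in Tom+ (5078 against 5533 CPM) and 0.083 in Tom- (4047 against 3821 CPM). In Tom- members 304 of the 4546 Sparc UMIs were in 1 cell, and whether the sign holds without that cell was not tested. Thbs1, thrombospondin 1, had 0.1215 in Tom+ (660 against 606 CPM) and -0.70 in Tom- (621 against 1012 CPM). Mmp3, stromelysin 1, had 0.1923 in Tom+ (140 against 122 CPM) and -0.72 in Tom- (48.1 against 79.2 CPM). In Tom+ members 125 of the 610 Mmp3 UMIs were in 1 cell, and whether the sign holds without that cell was not tested. Ccl8, a chemokine, had -0.3311 in Tom+ (37.6 against 47.3 CPM) and 1.203 in Tom- (21.4 against 9.28 CPM).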

How the results depend on the processing

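No paired analysis was possible because each condition has 1 library. Depth limits the Tom- members most, at 1123351 UMIs in 100 cells. Members as a share of Tom+ gate cells came to 5.71% with 200 members, 19.6% with 800, 7.095% with 200 from each library, 13.0% with mitochondrial UMIs under 5% and 11.9% without cells over the 90th percentile of UMIs. The Tom- share came to 0.931%, 5.87%, 4.77% and 3.19% under the first 4 of these, to 3.01% without Chchd10 in the score, 1.91% without Mmp11 and 2.91% after thinning. With 200 from each library both shares were fixed by that choice and the gate sizes. The share of members among their neighbours came to 18.0% with 200 members, 35.8% with 800, 20.1% with 200 from each library and 22.0% without Rab3b. Genes higher in members in both libraries numbered 22 without Chchd10, 213 with no filter on low values and 14 at 20 CPM or more, and genes lower in both 69 with 800 members, 405 with no filter and 36 at 20 CPM or more. Genes higher in Tom+ than Tom- members numbered 844 with 200 members, 154 with 800, 251 with 200 from each library, 1208 with no filter and 60 at 20 CPM or more, and genes lower 355 with 200 members, 1217 with no filter and 32 at 20 CPM or more. Among named genes, log2 ratios below 0 turned to 0.12 for Acta2 in Tom+ with 800 members, to 0.43 and 0.42 for Car3 in Tom+ without shared barcodes and without cells over the 90th percentile, and to 0.22 for Chrdl1 in Tom- without Mmp11. The mast cell gene Cma1 turned to 0.33 in Tom+ without cells with immune RNA, and in Tom- to 0.29 with 800 members, 1.25 without Chchd10, 0.61 with 200 from each library, 6.41 after thinning and 0.085 without cells with immune RNA. Mcpt4 in Tom- turned to 0.17 without Chchd10, 5.95 after thinning and 0.29 without cells with immune RNA. Saa3 in Tom- turned to 0.84 without Mmp11 and 0.35 with mitochondrial UMIs under 5%, and Slco2a1 in Tom- to 0.27 with 800 members and 0.11 without Mmp11. Of the 39 named genes called in the members, 23 (with 800 members) to 39 were past 1 or -1 in both libraries under the alternatives. The cause was not tested. Leaving out cells with immune RNA, or the cell with the most UMIs of a gene, was chosen after seeing the data.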
